A study of Arabidopsis thaliana with 12 samples.

Results

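*HAM4* (*HAIRY MERISTEM 4*, AT4G36710), *FAF2* and *FAF3* (of the FAF family, AT1G03170 and AT5G19260) are 3 genes that bear on the size of the shoot apical meristem (SAM), among 22595 loci measured on the arrays. They were chosen because their signals fell after WUSCHEL (WUS) was activated by dexamethasone (Dex) without an inhibitor, so their change in Dex against mock is a description here and was not tested. Each was found by its locus and is read by 1 probe set (246230_at, 264363_at and 249920_at). The probe sets of *FAF2* and *FAF3* owe their locus to lists of genes that the study found changed and to no other table held here, and that of *HAM4* to the study's other tables. The samples were SAMs of *ap1-1;cal1-1* plants aged 28 days, a double mutant whose apices overproliferate as inflorescence meristems. All 4 groups carried *35S::WUS-GR*, in which a ubiquitous promoter drives WUS joined to the hormone-binding domain of the rat glucocorticoid receptor, so the fusion is made in cells that do not normally hold WUS and the controls carry it too. The 4 treatments lasted 4 h and were mock, 10 μM Dex, 10 μM cycloheximide (Cyc), which blocks protein synthesis, and 10 μM Dex with 10 μM Cyc (Dex+Cyc). Each had 3 arrays from pooled plants, and no source says that the 3 came from separate pools, so p-values cover just the spread of these samples, and that spread may be technical. Plants without the transgene were not analysed here. The paper describes the treatments with Cyc as independent experiments, so an effect of Cyc cannot be told apart from a difference between experiments.

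WUS is the homeodomain transcription factor that keeps stem cells in the SAM, and the CLAVATA3 (CLV3) peptide signal restricts its expression. HAM proteins are GRAS-domain regulators of transcription that keep the meristem from differentiating and that bind WUS as cofactors. FAF proteins are a small plant-specific family, and their overproduction represses *WUS* and arrests the shoot meristem. Genes of both kinds are also expressed in vascular tissue.

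Signals are the authors' MAS5 intensity values, which are linear and scaled so that all arrays have one trimmed mean. The median signal was 214 to 236 over the 12 arrays. A probe set's brightness depends on its probes as well as on the transcript, so levels were compared between treatments and not between genes. Of the markers of other cell types few had a named probe set (1 of 6 vascular, 1 of 4 flower organ and 0 of 4 leaf mesophyll and epidermis genes). Of the 6 shoot meristem markers 2 did, *KNAT1* and *CLV3*. The meristem gene *KNAT1* was at 2612 to 3320 in mock, the vascular *PXY* at 435 to 788 and the flower organ *PI* at 776 to 1236. *CLV3*, the known response to WUS, was at 53.1, 126 and 78.4 in mock and 738, 1043 and 954 in Dex. *WUS* itself and *STM* have no named probe set here.

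*HAM4* gave signals of 114, 109 and 86.7 on the 3 mock arrays and 15.7, 15.0 and 17.1 on the 3 Dex arrays. With Cyc alone they were 227, 233 and 199, and with Dex+Cyc 132, 117 and 100. The 3 Dex arrays were the lowest of all 12 and the 3 Cyc arrays the highest, while the mock and Dex+Cyc arrays overlapped. In order of level, Cyc (220 ± 18.0, SD, n = 3) was 1.89 times Dex+Cyc (116 ± 15.9, SD, n = 3), which was 1.13 times mock (103 ± 14.7, SD, n = 3). Mock in turn was 6.50 times Dex (15.9 ± 1.06, SD, n = 3). Within its array, the *HAM4* signal lay at percentile 38.3 to 41.4 of all probe sets in mock, 18.1 to 19.3 in Dex, 48.3 to 50.9 in Cyc and 38.2 to 41.8 in Dex+Cyc, positions that the scaling of an array does not alter.

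*FAF2* gave signals of 1277, 728 and 1257 in mock and 176, 176 and 222 in Dex. With Cyc they were 660, 1466 and 902, and with Dex+Cyc 690, 517 and 416. The Dex arrays lay below all others, whereas mock and Cyc overlapped, and so did Cyc and Dex+Cyc through Cyc replicate 1. With SDs over 3 arrays, the group means were 1087 ± 311 in mock, 1009 ± 413 in Cyc, 541 ± 139 in Dex+Cyc and 191 ± 26.8 in Dex. The top pair of this order differed by less than its spread.

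*FAF3* gave signals of 2652, 1971 and 2827 in mock and 464, 362 and 320 in Dex. With Cyc they were 1919, 3991 and 2775, and with Dex+Cyc 1133, 1874 and 1403. As for *FAF2*, the Dex arrays were the lowest and mock and Cyc overlapped, but here all 3 Dex+Cyc arrays lay below all mock and all Cyc arrays. With SDs over 3 arrays, the group means were 2895 ± 1041 in Cyc, 2483 ± 453 in mock, 1470 ± 375 in Dex+Cyc and 382 ± 74.1 in Dex.

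**Figure D1:**
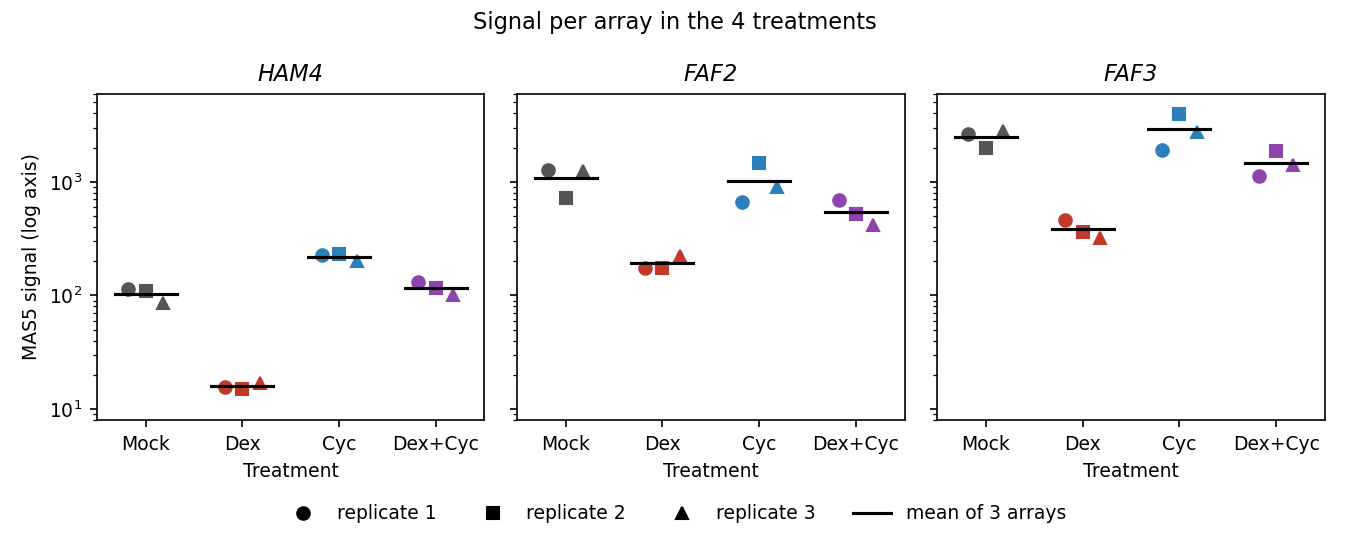
MAS5 signal of *HAM4*, *FAF2* and *FAF3* on each of the 12 arrays (log axis), with the mean of the 3 arrays of a treatment as a line. The Dex arrays are the lowest for each gene, and only *HAM4* has its Cyc arrays (199 to 233) above all mock arrays (86.7 to 114).

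With protein synthesis blocked, the question was whether the genes still responded to Dex. The choice rested on the fall in Dex against mock, but it was made with earlier results of these data known. Among these was the value of *HAM4* in these 6 arrays, so they were not wholly outside the choice. The study's lists of changed genes also cover both Dex comparisons. These arrays may therefore have helped to give *FAF2* and *FAF3* a named probe set, and their values here are not fully independent of that. Signals were taken as log2 and compared in limma over all 22595 loci, and a locus passed at an adjusted p (Benjamini-Hochberg) under 0.01 with at least a 2-fold change. None of the 3 passed, although all 3 had an unadjusted p under 0.05 in limma, as 13.8% of all loci had. Only 24 of the 22595 loci passed in either direction. The paper called many more genes in this comparison at the same thresholds, from values processed in another way (GCRMA). Not passing here therefore does not show that a gene was unchanged. *HAM4* had a log2 fold change of -0.92 (95% interval -1.25 to -0.60, adjusted p = 0.0197 from limma), or 1.90-fold lower, and its highest Dex+Cyc array lay below its lowest Cyc array. *FAF3* had -0.94 (95% interval -1.60 to -0.29, adjusted p = 0.174 from limma), also with the arrays apart. *FAF2* had -0.85 (95% interval -1.59 to -0.11, adjusted p = 0.287 from limma), with the arrays overlapping.

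Of all loci, 0.0929% passed in the lower direction in Dex+Cyc against Cyc, 0.965% were lower at an adjusted p under 0.05, as *HAM4* was, and 9.64% had the arrays apart in that direction, as *HAM4* and *FAF3* did. The 3 values stood close to each other in the lower tail of all loci, with 1551 loci below *FAF3*, 1609 below *HAM4* and 1779 below *FAF2*, and a median over all loci of 0.03. When each array was left out in turn, the adjusted p of *HAM4* ran from 0.0312 to 0.0774, so that it exceeded 0.05 without each array except Dex+Cyc replicate 1 (0.0312). The value of *FAF2* fell in size to -0.54 without Cyc replicate 2.

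In Dex against mock, the comparison behind the choice, the log2 fold changes were -2.69 for *HAM4* (standard error 0.14), -2.47 for *FAF2* (standard error 0.33) and -2.70 for *FAF3* (standard error 0.29), given as a description with no test, and all 3 had the Dex arrays below the mock arrays, beside 12.9% of all loci. The Dex effect with Cyc was thus smaller in size by 1.77 (standard error 0.20), 1.62 (standard error 0.47) and 1.76 (standard error 0.41) on the log2 scale. Since the first of these effects chose the genes, it can be too large for that reason alone, and the difference was not tested. The Dex+Cyc level was 7.28 times the Dex level for *HAM4*, 2.78 times for *FAF2* and 3.81 times for *FAF3* in the fit, and for each gene all 3 Dex+Cyc arrays lay above all 3 Dex arrays, as for 19.8% of all loci. The choice of genes with low Dex signals favours this too, and it is a description. The Dex and Dex+Cyc arrays also came from independent experiments by the paper's account. Adding a value of 32 before taking log2 left *FAF2* and *FAF3* at -2.29 and -2.60 in Dex against mock but brought *HAM4* to -1.49, since its Dex signal is itself below 32.

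Of the cell type markers read here, the 2 of the shoot meristem went opposite ways with Dex, and *PXY* and *PI* did not pass. *CLV3* rose, with log2 fold changes of 3.48 without and 2.53 with Cyc (adjusted p = 0.00234 and 0.0214 from limma, of which only the first passed), while *KNAT1* fell. *KNAT1*, a homeobox gene of the meristem and stem, was at 729 to 915 in Dex against 2612 to 3320 in mock, and at 353 to 612 in Dex+Cyc against 1295 to 1629 in Cyc (log2 fold changes of -1.77 and -1.59, adjusted p = 0.00236 and 0.0121 from limma, of which only the first passed). The paper reports *KNAT1* as repressed by WUS, with Cyc as well as without. Both meristem markers thus respond to WUS and do not read the makeup of the samples alone. *PXY*, a receptor kinase of the vascular cambium, was at 238 to 295 against 435 to 788, and at 244 to 323 against 414 to 499 (log2 fold changes of -1.19 and -0.66, adjusted p = 0.0126 and 0.191 from limma). Its arrays were thus lower with Dex and lay apart in both comparisons, as for 12.9% and 9.64% of all loci. *PI* overlapped between Dex and mock (572 to 822 against 776 to 1236) and not between Dex+Cyc and Cyc (300.5 to 501 against 507 to 637), with an adjusted p of 0.289 and 0.425 from limma. The loci of *KNAT1* and *PXY* too are known only through the lists of changed genes, and their part in the values of *HAM4*, *FAF2* and *FAF3* was not tested. In whole SAM samples, fewer cells that express a gene and less RNA per cell cannot be told apart.

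**Figure D2:**
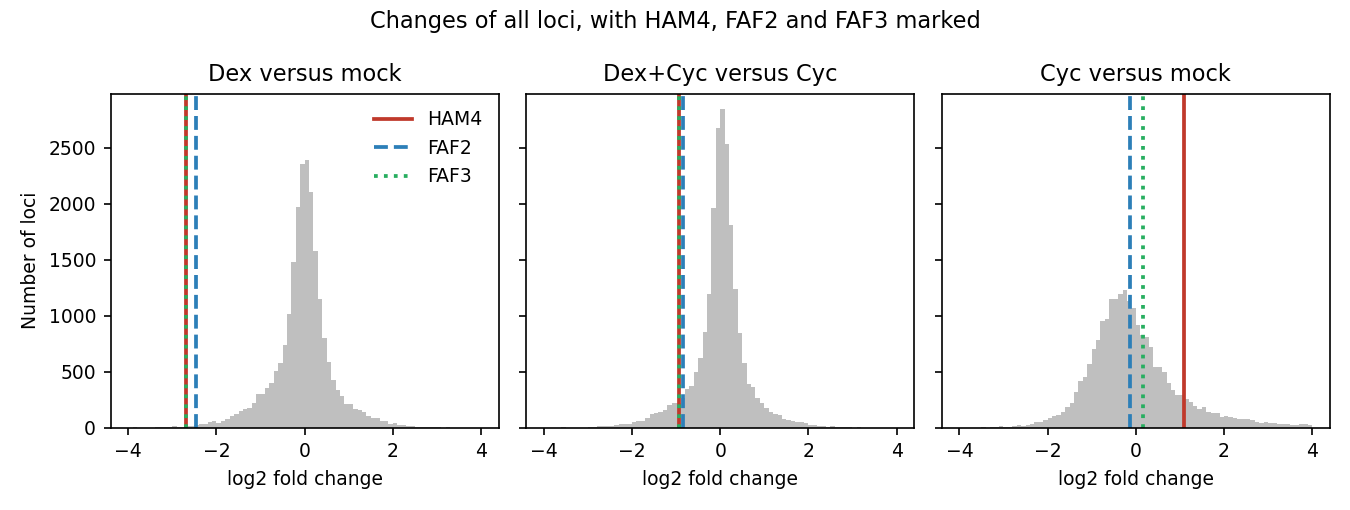
Number of loci by log2 fold change in the 3 comparisons (bins of 0.1 on the log2 scale), with the values of *HAM4*, *FAF2* and *FAF3* as vertical lines. Loci below -4 or above 4 are not drawn (3 in Dex against mock, 1 in Dex+Cyc against Cyc and 502 in Cyc against mock). The 3 lines lie together in the lower tail in both Dex comparisons, at -2.70 to -2.47 without and -0.94 to -0.85 with Cyc, and part in Cyc against mock, where *HAM4* is at 1.10.

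Of the 3 genes, *HAM4* alone passed in Cyc against mock, and the difference between the genes was not tested. These groups came from independent experiments by the paper's account, so blocked protein synthesis and the experiment cannot be told apart. *HAM4* rose from mock to Cyc with a log2 fold change of 1.10 (95% interval 0.77 to 1.42, adjusted p = 0.00027 from limma), or 2.14-fold. *FAF2* and *FAF3* had values of -0.14 (95% interval -0.88 to 0.60, adjusted p = 0.783 from limma) and 0.17 (95% interval -0.48 to 0.83, adjusted p = 0.689 from limma), with the arrays overlapping for both. The median over all loci was -0.18, so *HAM4* stood further above the other loci than above 0. Such a rise was not rare, since 8.3% of all loci passed in the higher direction and 3112 loci had a larger value than *HAM4*. The arrays of *HAM4* lay apart, as those of 18.2% of all loci did in that direction. The mock arrays also served in the choice of the genes, which favours low values here. The call of *HAM4* ended at the fold threshold without Mock replicate 3, at 0.97 (adjusted p = 0.00109), and with 32 added, at 0.90 (adjusted p = 8.04e-05).

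The arrays of a treatment agreed to a different degree for the genes. *HAM4* had SDs on the log2 scale of 0.21 in mock, 0.09 in Dex, 0.12 in Cyc and 0.20 in Dex+Cyc. Its Dex signals, at 15.0 to 17.1, lay where arrays usually scatter, since 944 loci within 0.25 of its Dex level on the log2 scale had a median SD of 1.12, and only 0.424% of these, *HAM4* included, had an SD no larger than that of *HAM4*. *FAF2* and *FAF3* had SDs above the median of loci of like brightness in mock, Cyc and Dex+Cyc, and in Dex *FAF3* did (0.27 against 0.15) while *FAF2* did not (0.20 against 0.20). In Cyc their SDs were 0.58 and 0.53 against medians of 0.14 and 0.13, and 99.5% and 98.9% of such loci had an SD no larger. In mock the SD of *FAF2* was 0.46 against a median of 0.15.

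On some arrays these deviations ran the same way in several FAF genes, and on others they did not. *FAF2*, *FAF3* and their relative *FAF1* were all lowest in mock on replicate 2, by 0.53, 0.32 and 0.57 below the mock mean on the log2 scale, and all highest in Cyc on replicate 2, by 0.62, 0.53 and 0.41 above the Cyc mean. On Dex+Cyc replicate 1 they parted, with deviations of 0.38, -0.34 and 0.19, and on Dex replicate 1 likewise, with -0.11, 0.30 and -0.31. The FAF-like gene AT5G22390 was 0.18 above its mean on Mock replicate 2 and 0.40 above it on Cyc replicate 2. Deviations from the group means over the 12 arrays had a Pearson r of 0.84 between *FAF2* and *FAF1*, 0.51 between *FAF2* and *FAF3* and 0.38 between *FAF3* and *FAF1*. Those of AT5G22390 had an r of 0.12 with *FAF2*, -0.13 with *FAF3* and 0.36 with *FAF1*. Those of *HAM4* had an r of 0.27 with *FAF2* and -0.25 with *FAF3*. These are descriptions over 12 arrays in 4 groups of 3, whose deviations sum to 0 within a group. On Mock replicate 2 and Cyc replicate 2 *PI* had its highest mock (1236) and Cyc (637) signals, opposite to the FAF genes in mock and with them in Cyc. *CLV3* did the same (126 and 134). *KNAT1* was the middle array in both (2648 and 1520), and *PXY* was the middle one in mock (586.5) and the highest in Cyc (499). Whether the makeup of the samples moved the FAF signals was not tested.

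**Figure D3:**
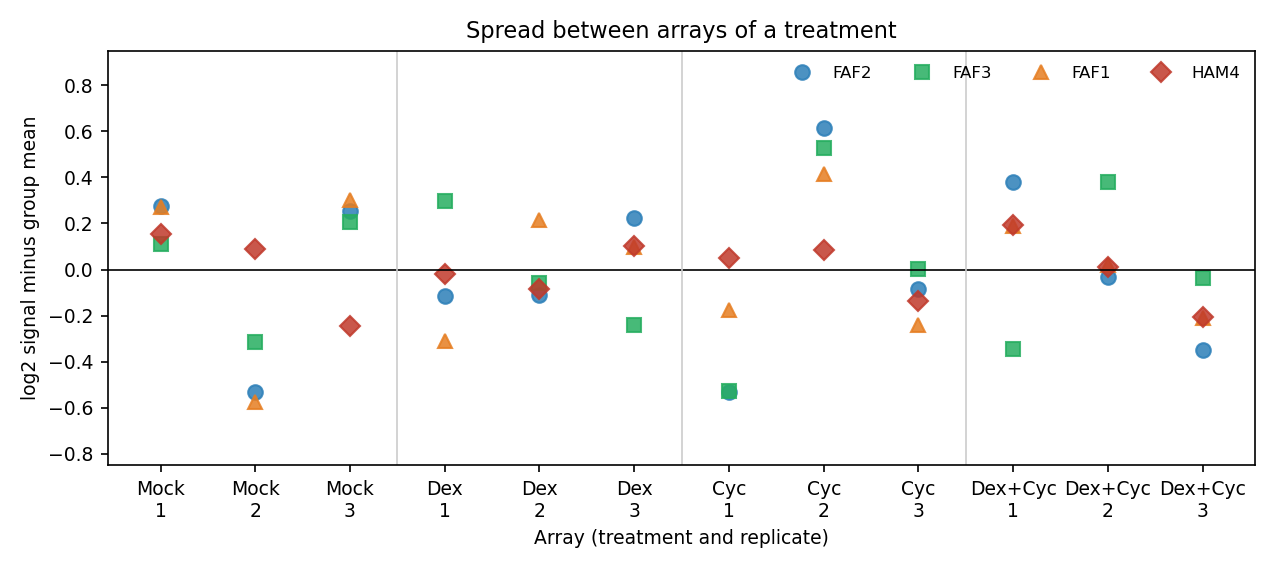
Log2 signal of *FAF2*, *FAF3*, *FAF1* and *HAM4* on each array minus the mean of its treatment. The 3 FAF genes lie together below 0 on Mock replicate 2 (-0.57 to -0.32) and above 0 on Cyc replicate 2 (0.41 to 0.62), but on Dex replicate 1 and Dex+Cyc replicate 1 *FAF3* lies on the other side of 0 from *FAF2* and *FAF1*.

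The nearest relatives of the 3 genes were read in the same way. Of the 4 HAM genes, *HAM3* also had a named probe set, and of the FAF genes *FAF1* and the FAF-like gene AT5G22390. *HAM1*, *HAM2* and *FAF4* were not analysed here. *HAM3* gave signals of 512, 475 and 567 in mock, 236, 153 and 198 in Dex, 403, 411 and 454 in Cyc and 346, 289 and 272 in Dex+Cyc. Its groups did not overlap at any step of the order mock, Cyc, Dex+Cyc, Dex. *FAF1* gave 771, 428 and 787 in mock, 140, 202 and 186 in Dex, 1010, 1519 and 966 in Cyc and 838, 745 and 634 in Dex+Cyc. As for *HAM4*, its mock and Dex+Cyc arrays overlapped, with the Cyc arrays above and the Dex arrays below. AT5G22390 gave 20.6, 29.1 and 28.4 in mock, 1.83, 10.1 and 2.98 in Dex, 95.9, 161 and 118 in Cyc and 77.4, 44.4 and 65.7 in Dex+Cyc. Its mock and Dex signals were among the dimmest of the arrays, at percentiles 2.5 to 25.3, which leaves the size of its changes uncertain.

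In Dex against mock *HAM3* fell, with a log2 fold change of -1.42 (SE 0.17, adjusted p = 0.00235 from limma), and *FAF1* fell, with -1.88 (SE 0.28, adjusted p = 0.00619 from limma). AT5G22390 had -2.76 (SE 0.54, adjusted p = 0.0196 from limma) and did not pass. In that direction 0.73% of all loci passed. The loci of *HAM3* and *FAF1* likewise come from the lists of changed genes alone, so that both could be counted only because the study had found them changed, and their calls are not independent evidence of a family response. The call of *HAM3* ended without Dex replicate 3, Mock replicate 1 or Mock replicate 3 (adjusted p = 0.0142, 0.0115 and 0.0116) and that of *FAF1* without each array except Mock replicate 2 (0.0182 to 0.0260), while AT5G22390 passed without Dex replicate 2, at -3.47 (adjusted p = 0.00373).

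With Cyc present, the Dex values of these relatives were -0.49 (adjusted p = 0.214) for *HAM3*, -0.63 (adjusted p = 0.351) for *FAF1* and -1.0 (adjusted p = 0.473) for AT5G22390. None passed in limma, while in all 3 the groups did not overlap, with Dex+Cyc the lower, as for 9.64% of all loci. The lists of changed genes that name *HAM3* and *FAF1* cover this comparison too, which may favour such values. The Dex effect with Cyc was smaller in size than that without by 0.94 for *HAM3*, 1.24 for *FAF1* and 1.76 for AT5G22390 on the log2 scale (adjusted p = 0.332, 0.413 and 0.593 from limma), and these differences did not pass either. From mock to Cyc, AT5G22390 rose with a log2 fold change of 2.25 (SE 0.54, adjusted p = 0.00807 from limma), a call that ended when any of its 6 arrays was left out (0.0151 to 0.0325). *FAF1* had 0.84 (adjusted p = 0.0354) and *HAM3* -0.29 (adjusted p = 0.198), and neither passed.

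**Figure D4:**
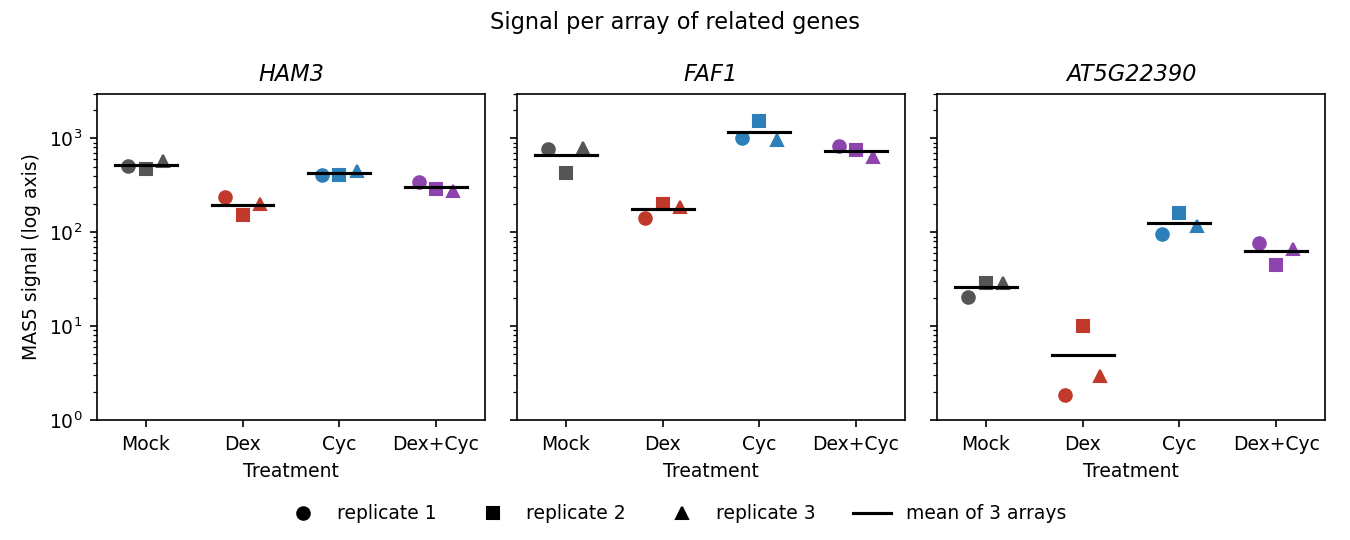
MAS5 signal of *HAM3*, *FAF1* and the FAF-like gene AT5G22390 on each of the 12 arrays (log axis), with the mean of the 3 arrays of a treatment as a line. The Dex arrays are the lowest for each gene, and the Cyc arrays lie above mock for *FAF1* (966 to 1519 against 428 to 787) and AT5G22390 but below it for *HAM3*.

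**Figure D5:**
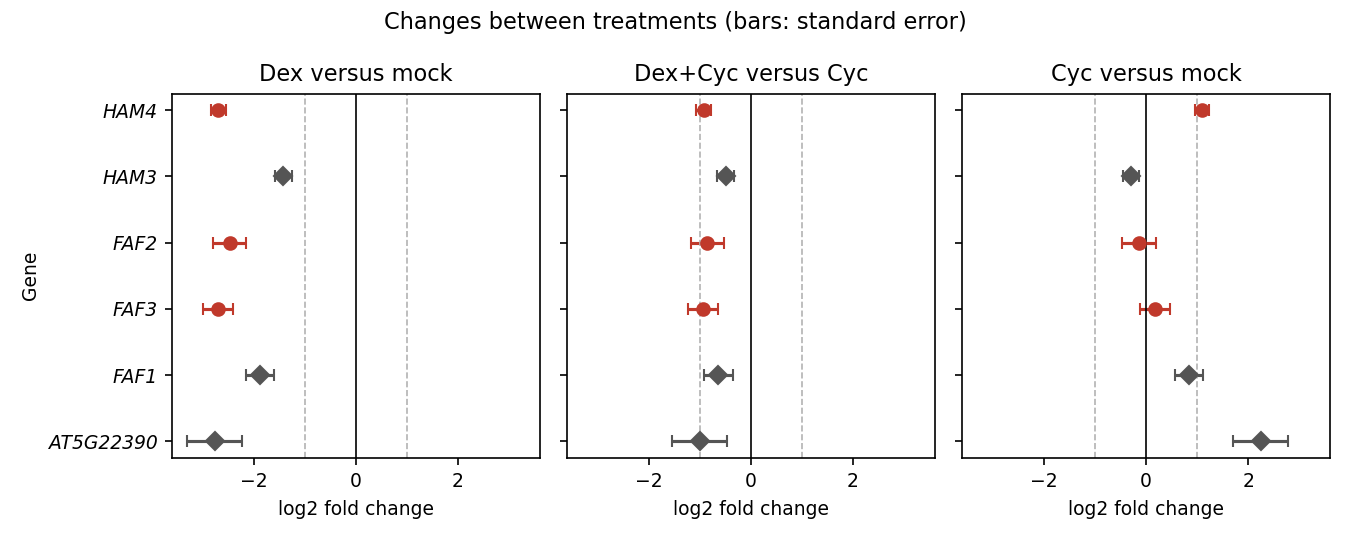
Log2 fold changes of the 6 HAM and FAF family genes in the 3 comparisons, with standard errors as bars (circles, *HAM4*, *FAF2* and *FAF3*, chosen on Dex against mock; diamonds, their relatives; dashed lines, 2-fold). All 6 are below 0 in both Dex comparisons (-2.76 to -1.42 and -1.0 to -0.49), and in Cyc against mock they run from -0.29 to 2.25. The medians over all loci in the Dex comparisons are -0.01 and 0.03. The choice of the circles, and the naming of *HAM3* and *FAF1* through lists of changed genes alone, favour values below 0 there. The shared direction is therefore a description.

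The wider GRAS family, with *HAM3* and *HAM4* set aside, had 15 of 28 listed genes measured, and 0 passed in either Dex comparison in limma, beside 1.18% and 0.106% of all loci. At an unadjusted p under 0.05 there were 6 and 4 of the 15, beside 19.3% and 13.8% of all loci. Their median log2 fold change was 0.20 in Dex against mock and 0.11 in Dex+Cyc against Cyc, beside medians of -0.01 and 0.03 over all loci. *SCL13* had 0.74 in Dex against mock (adjusted p = 0.00741), under 2-fold, and was the only one of the 15 at an adjusted p under 0.05 there, beside 2.15% of all loci in that direction. From mock to Cyc 5 of the 15 rose and 2 fell, beside 8.3% and 7.32% of all loci. Those with the smallest p were *SCL13*, *SCL11*, *SCL31* and *SCL7*, which rose by 3.18, 3.62, 3.07 and 1.43 on the log2 scale. The rise of *HAM4* with Cyc, at 1.10, was smaller than each of these.

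Of 16 genes of the CLAVATA and WUS pathway, 4 were measured. *CLV3* rose in Dex against mock by 3.48 (adjusted p = 0.00234 from limma), in the direction in which 0.451% of all loci passed and opposite to the FAF genes and *HAM4*. With Cyc its value was 2.53 (adjusted p = 0.0214), beside 0.0133% of all loci that passed in the higher direction. *BAM1*, a receptor kinase of the CLV1 class whose locus is known only through the lists of changed genes, had -0.81 (adjusted p = 0.00996), under 2-fold. *POL*, a phosphatase that acts in CLAVATA signaling, and *ULT1*, which limits meristem size, had -0.14 and -0.31 in that comparison and 0.03 and -0.13 in Dex+Cyc against Cyc, without passing. Both fell from mock to Cyc, by 1.20 and 1.05.

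The genes whose pattern over the 12 arrays was most like that of each gene were taken by Pearson r of log2 signal, among 4186 loci for *HAM4* and 4185 for *FAF2* and *FAF3* that were not among the dimmest 40% and varied by an SD of at least 0.5. These r values share all arrays and are dominated by the 4 group means. Most like *HAM4* were *GGP1*, a gamma-glutamyl peptidase gene (r = 0.976), AT4G36010 (0.971), AT1G68810 (0.969), *NPY5*, which takes part in organ formation under auxin (0.966), and *AXR3*, an Aux/IAA repressor of auxin signaling (0.966). *GGP1* had mean signals of 1900 in mock, 772 in Dex, 3614 in Cyc and 2033 in Dex+Cyc, the same order of treatments as *HAM4*. Most like *FAF2* were *CYP96A4*, a cytochrome P450 gene (0.979), *DFL1*, which encodes an auxin-conjugating enzyme (0.962), the abaxial identity gene *KAN2* (0.959), AT1G10650 (0.956) and AT1G09250 (0.951). *KAN2* had means of 867 in mock, 334 in Dex, 955 in Cyc and 532 in Dex+Cyc. Most like *FAF3* were *PLP6* (0.963), the splicing factor gene *SR45a* (0.962), *CYP96A4* again (0.962), AT1G11125 (0.955) and *FAF2* itself (0.946). In the other direction *FAF3* took position 7 among the loci most like *FAF2*, while for *HAM4* the positions of *FAF3* and *FAF2* were 54 and 142. *HAM4*, *FAF2* and *FAF3* were all chosen for their fall in Dex against mock, on arrays that enter these r values. That choice favours likeness between them, so these positions are a description.

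The genes next to *HAM4*, *FAF2* and *FAF3* on the chromosome, by the gene order of the TAIR10.1 annotation, did not pass in the Dex comparisons. Of 6 adjacent protein-coding genes 4 were measured. AT4G36700, beside *HAM4*, stayed at 1.88 to 5.64 on all arrays, at the dim end. AT1G03180, beside *FAF2*, had log2 fold changes of -0.56 in Dex against mock (adjusted p = 0.0671) and 0.14 with Cyc (adjusted p = 0.779). On either side of *FAF3*, AT5G19250 had -0.54 (adjusted p = 0.0505) and -0.35 (adjusted p = 0.278), and AT5G19270 had 0.31 (adjusted p = 0.761) and -0.56 (adjusted p = 0.631). These 4 genes were named for their place and not for their values, and none passed in either comparison in limma, where 1.18% and 0.106% of all loci did.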

How the data were processed

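RNA from 12 samples was hybridized to Affymetrix ATH1 arrays. The deposited table holds linear MAS5 intensity values, which the authors scaled to a mean of 500 on each array after trimming 2% at each end, as checked on the values. MAS5 and affy are named in the submitters' processing notes, with versions not given in the sources used here. The paper's test used GCRMA values, which were not used here.

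After 64 control probe sets were removed from 22810, 13513 had 1 symbol in the platform annotation, 503 had several and 8730 were unlisted. When loci from the study's tables were added, 14540 probe sets had a locus, 421 only through its lists of changed genes. The brightest probe set of a locus was kept, which left 22595 loci, counting each unnamed probe set as 1. Detection calls were not used. Symbols are those of RefSeq (TAIR10.1).

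Log2 signals were fitted in limma 3.58.1 (R 4.3.3) with 4 group means and eBayes (1.34 prior and 8 residual degrees of freedom). The rule for naming took the 3 genes, their HAM and FAF relatives, up to 4 genes per pathway list by smallest adjusted p, and the 5 loci most like each gene. Members and lists were chosen with earlier results of these data known. The adjacent genes were added last. Depth does not apply to arrays, whose number limits the precision. The fit was tested on simulated data. Python 3.11.15 and pandas 2.3.3 were used. The replicate numbers were not treated as pairs in the main fit, and alternatives are given in the closing section.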

Additional observations from a re-analysis of the deposited data

How the results depend on the processing

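Over 8 other settings (7 for *HAM4*, which the filter on dim probe sets removed), no value of *HAM4*, *FAF2* or *FAF3* in the Dex comparisons changed direction. With Cyc none of the 3 passed under any of these settings or without any array, at -1.06 to -0.77 for *HAM4* (adjusted p 0.00621 to 0.128), -0.91 to -0.82 for *FAF2* and -1.0 to -0.87 for *FAF3*. With log2(value + 32), *HAM4* was at -1.49 in Dex against mock and at 0.90 in Cyc against mock, under the fold threshold. Without single arrays *HAM4* was at 0.97 to 1.17 in Cyc against mock, *FAF2* at -0.45 to 0.13 and *FAF3* at -0.089 to 0.44, so both FAF values can take either sign. Dim signals limit *HAM4* in Dex and AT5G22390.

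The 267 loci called in Dex against mock became 423 when the dimmest 40% were left out, 461 when limma's variance trend and robust option were used, 98 with the replicate number as a block, 0 when limma was given those 6 arrays alone (3748 at an unadjusted p under 0.05) and 44 to 194 without single arrays. The 24 of Dex+Cyc against Cyc became 155, 172, 0 with the block (3038 at an unadjusted p under 0.05), 0 with the 6 arrays (3024) and 0 to 4 (2440 to 2962), and 137 with log2(value + 32). Of *HAM3*, *FAF1* and AT5G22390, the 2 calls in Dex against mock became 3 with the variance trend, 1 with the block, 0 with the 6 arrays and 0 to 2 without single arrays. The 1 call in Cyc against mock, of AT5G22390, became 0 with quantile normalization and with the block, and was 0 without each single array. The filter on the dimmest 40% removed AT5G22390, so its call was not read there. The causes were not tested. Same-numbered arrays deviated from their group means with r of -0.09 to 0.25 (median 0.04 over 18 pairs), and differently numbered ones with -0.23 to 0.18 (median -0.02 over 36 pairs). Between Cyc and Dex+Cyc, r was 0.25 for replicates 1, 0.21 for replicates 2 and 0.02 for replicates 3. It was -0.23 and -0.21 where replicates 1 and 2 were crossed. Whether the numbers pair some samples was not tested. The block changed no call of *HAM4*, *FAF2* or *FAF3*.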
